A study of Mus musculus with 98 samples.

Results

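The response to tau was described in stimulated mouse hippocampal neurons that carried extra Acss2. It comprised 6 of the 98 libraries of the series, chosen by their labels and not by any measured value: 3 of neurons given the PhP.eB.upACSS2 virus and then hAD-tau, and 3 of neurons given the same virus and then PBS. The study asked which transcripts ACSS2 upregulation alters in such neurons. All were primary hippocampal neurons in culture, exposed to the virus on day 5 for 48 hours, washed, given tau or PBS on day 7 and labelled as stimulated on day 21. Both groups therefore carry the Acss2 virus, and in the labels only the tau material separates them. Another 6 stimulated libraries on day 21 had received the PhP.eB vector without the Acss2 insert, 3 with hAD-tau and 3 with PBS, and serve as the comparison. Also used were 12 unstimulated day 21 libraries of the same 4 combinations and a day 21 culture without virus, with 4 tau and 3 PBS libraries. The kind of stimulation, the promoter in the virus and the origin of the replicates are not given in the sources used here, so p-values measure the spread between these libraries, which may be technical. For the unstimulated libraries with upACSS2 and PBS, and those with vector and tau, the treatment tag names the other condition, and groups were taken from the titles.

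Tau is a microtubule-binding protein of axons that aggregates in Alzheimer's disease, and aggregates added to cultured neurons can recruit the neurons' own tau. ACSS2 makes acetyl-CoA from acetate in the cytosol and the nucleus, where acetyl-CoA is used for lipid synthesis and for histone acetylation. In neurons ACSS2 is known for a role in memory-related gene expression. Glycolysis turns glucose into pyruvate, which pyruvate dehydrogenase converts to acetyl-CoA in mitochondria. The hypoxia-inducible factor HIF raises transcription of glycolytic enzymes and of kinases that hold pyruvate dehydrogenase back.

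Acss2, the gene on the virus (GRCm38 chr2:155518043-155562743), was measured first, as CPM, its counts per 1000000 of the TMM-scaled library size. It stood at 3709, 4033 and 5462 CPM in the upACSS2 libraries with tau and at 2745, 2079 and 3485 CPM in those with PBS. All 6 lay far above the vector libraries, which held 40.1 to 57.9 CPM. The tau and PBS values did not overlap, and the difference (log2 fold change 0.67 ± 0.195, SE) did not pass the test (adjusted p = 0.159, edgeR). Acss2 thus moved with the groups compared, and its part in the results that follow was not tested. Total counts per library were 27540501 to 29032009 with tau and 29345774 to 34971575 with PBS, which did not overlap. The share of counts on Rn45s, the ribosomal RNA precursor, was 0.384% to 0.545% with tau and 0.538% to 0.741% with PBS.

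Markers of both neurons and glia were detected. Rbfox3, a nuclear marker of neurons, lay at 121 to 205 CPM over the 6 libraries, and the astrocyte filament Gfap at 2090 to 5190 CPM. The defining microglial markers Cx3cr1 and Tmem119 stayed at or below 0.348 CPM, and the endothelial marker Cldn5 was at 0 in all 6. PBS replicate 2 stood apart from the other 5 libraries on the first principal component (34.4 against -22.6 to 5.51). Its 12 oligodendrocyte-lineage markers summed to 1080 CPM, against 3660 and 2270 CPM in the other PBS libraries and 1930 to 2410 CPM with tau. Its Gfap was 2090 CPM, against 5190 and 4830 CPM in the other PBS libraries. Results are given with it and, where its removal matters, without it.

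With tau, 28 genes rose and 3 fell among 14939 tested, a share of 0.208% (edgeR quasi-likelihood test, Benjamini-Hochberg adjusted p under 0.05). The genes that rose included hexokinase 2 (Hk2), the liver-type phosphofructokinase (Pfkl), pyruvate dehydrogenase kinase 1 (Pdk1), lipoprotein lipase (Lpl), the kainate receptor subunit Grik4, the potassium channel Kcnq5 and the calcium sensor Hpca. The 3 that fell were the transcription factor Lhx1, the neuropeptide precursor Tac1 and the glutathione transferase Gsto1. The higher genes had log2 fold changes of 0.458 to 2.99, with a median of 1.09. The 31 adjusted p-values lay between 0.0433 and 0.048, close under the threshold, and the next gene outside it had 0.0559. In all, 2132 genes had an unadjusted p under 0.05.

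The number of calls depended on the libraries in the fit. With only the 6 upACSS2 libraries in the fit 167 of 14612 genes passed (1.14%; 150 higher, 17 lower), including 30 of the 31, all but Cmah. Without 1 library the count was 0 for upACSS2 tau replicates 2 and 3, upACSS2 PBS replicates 1 and 2 and vector PBS replicates 1 and 3, 1 for upACSS2 tau replicate 1, 2 for vector tau replicate 1, 21 for upACSS2 PBS replicate 3, 56 for vector PBS replicate 2, 187 for vector tau replicate 3 and 250 for vector tau replicate 2.

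Hk2 (chr6:82725025-82774454), the inducible hexokinase that commits glucose to the cell, showed the highest fold change among the called genes. It stood at 14.3, 31.9 and 28.3 CPM with tau and at 4.4, 1.99 and 2.99 CPM with PBS, or 2.99 ± 0.529 (SE) as a log2 fold change (adjusted p = 0.048, edgeR). Every tau library exceeded every PBS library, and tau replicate 1 was the lowest of its group. Pfkl (chr10:77986947-78009807) catalyses the main control step of glycolysis. Its values were 276, 321 and 346 CPM with tau and 142, 109 and 161 CPM with PBS, or 1.20 ± 0.202 (SE) as a log2 fold change (adjusted p = 0.047, edgeR). Pdk1 (chr2:71873215-71903858) phosphorylates pyruvate dehydrogenase and slows the conversion of pyruvate to acetyl-CoA in mitochondria. It was 87.4, 104 and 97.8 CPM with tau against 42.4, 35.7 and 42.4 CPM with PBS, or 1.26 ± 0.200 (SE) as a log2 fold change (adjusted p = 0.047, edgeR). For both genes the groups were well separated, and without PBS replicate 2 the log2 fold changes were 1.06 for Pfkl, 1.19 for Pdk1 and 2.75 for Hk2.

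Promoter windows of Hk2 and Pdk1 are shown because both genes rose with tau and are textbook HIF targets. Each runs from 250 bases before to 50 after a RefSeq transcript start (build GRCm38.p6), and capitals mark matches to the HIF core ACGTG on either strand. Hk2 was picked after its values were seen.
Hk2, chr6:82774405-82774704, minus strand: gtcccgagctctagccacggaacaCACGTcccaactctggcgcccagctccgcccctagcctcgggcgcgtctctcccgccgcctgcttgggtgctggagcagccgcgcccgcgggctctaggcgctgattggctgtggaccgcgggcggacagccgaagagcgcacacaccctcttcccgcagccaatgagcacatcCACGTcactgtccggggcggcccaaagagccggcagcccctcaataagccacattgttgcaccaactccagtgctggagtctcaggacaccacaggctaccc
Pdk1, chr2:71872974-71873273, plus strand: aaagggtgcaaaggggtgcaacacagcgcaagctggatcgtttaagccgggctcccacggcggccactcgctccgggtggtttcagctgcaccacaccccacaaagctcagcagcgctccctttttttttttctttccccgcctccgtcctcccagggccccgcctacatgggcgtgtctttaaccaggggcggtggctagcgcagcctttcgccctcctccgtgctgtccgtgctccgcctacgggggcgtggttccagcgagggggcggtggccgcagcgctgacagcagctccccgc
The Hk2 window held 2 matches and this Pdk1 window held 0. The match describes the letters in these windows and says nothing of factor binding.

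Of 18 HIF targets, 18 had a log2 fold change above 0, against 47% of all genes tested. The test was passed by 1 (Pdk1), against 0.208% of all genes. In 15 of the 18 every tau library exceeded every PBS library, against 12.5% of all genes. The median log2 fold change of the list was 0.931, beside -0.0146 over all genes, and 0.717 without PBS replicate 2. P4ha2, a collagen prolyl hydroxylase, had 19.2, 28.2 and 33.2 CPM with tau and 10.6, 11 and 12.1 CPM with PBS (adjusted p = 0.0847, edgeR). The mitophagy receptor Bnip3 had 195, 202 and 261 CPM with tau and 92.0, 91.3 and 102 CPM with PBS (adjusted p = 0.0943, edgeR). Neither group pair overlapped, and neither gene passed the test in the fit of 12 libraries. The carbonic anhydrase Car9, which acidifies the medium of hypoxic cells, was at 4.64, 2.93 and 8.07 CPM with tau and at 0.236, 0.0281 and 0.206 CPM with PBS (adjusted p = 0.12, edgeR). The angiogenic factor Vegfa was at 122, 133 and 140 CPM with tau and at 69.3, 54.2 and 65.9 CPM with PBS (adjusted p = 0.138, edgeR). Bnip3, Car9 and Vegfa were picked from the list after their values were seen. In the fit of the 6 libraries alone 9 of the 18 passed, among them all 4 of these genes, against 1.14% of all genes.

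Of 23 genes of glycolysis and lactate, 21 had a log2 fold change above 0, against 47% of all genes. The test was passed by 2 (Hk2 and Pfkl), against 0.208% of all genes. The tau and PBS libraries did not overlap for 17 higher genes, against 12.5% of all genes in that direction. The same held for 1 lower gene, against 11.2% of all genes in that direction. Enolase 1 (Eno1) stood at 291, 317 and 338 CPM with tau and 194, 188 and 206 CPM with PBS (adjusted p = 0.0713, edgeR). Lactate dehydrogenase A (Ldha), which makes lactate, stood at 581, 712 and 845 CPM with tau and 386, 334 and 388 CPM with PBS (adjusted p = 0.0828, edgeR). Both had separate groups, with fold changes of 1.61 and 1.93. The lactate exporter Slc16a3 was at 6.34, 11.8 and 15.7 CPM with tau and at 2.36, 0.926 and 1.48 CPM with PBS (adjusted p = 0.13, edgeR). Ldha and Slc16a3 were picked after their values were seen. The median over the list was 0.524, and 0.496 without PBS replicate 2. In the 6-library fit 10 of the 23 passed, all higher, against 1.14% of all genes in that fit.

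**Figure D1:**
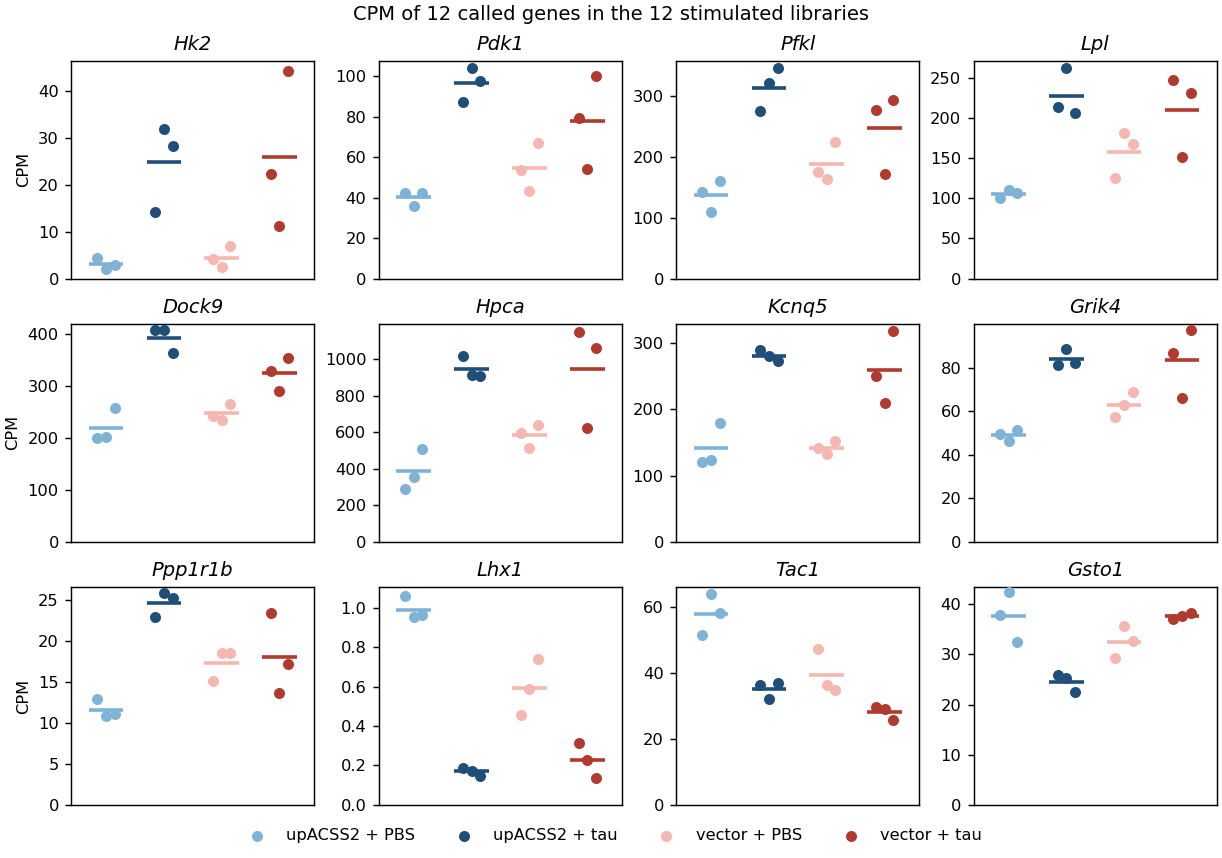
CPM (vertical axis, linear from 0) of 12 called genes in each of the 12 stimulated libraries, as points, with the group mean as a line. The 3 upACSS2 libraries with tau lie on 1 side of the 3 with PBS for all 12 genes, above them for 9 and below them for Lhx1, Tac1 and Gsto1, and in the vector libraries several genes overlap, Ppp1r1b among them.

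Genes of lipid supply and acetyl-CoA use were also among those that rose. Lpl, which releases fatty acids from lipoproteins, was 214, 263 and 206 CPM with tau and 101, 110 and 107 CPM with PBS (log2 fold change 1.10 ± 0.178, SE; adjusted p = 0.047, edgeR). Slc27a3, of the fatty acid transport and activation family, was 10.3, 23.4 and 23.1 CPM with tau and 5.29, 3.48 and 5.47 CPM with PBS (log2 fold change 2.00 ± 0.327, SE; adjusted p = 0.047, edgeR). For Slc27a3 tau replicate 1 was the lowest of its group, and neither gene's tau values reached into the PBS range. Acat2, the cytosolic thiolase that joins acetyl-CoA units, was 80.0, 69.7 and 75.9 CPM with tau and 54.4, 41.5 and 48.0 CPM with PBS (log2 fold change 0.65 ± 0.108, SE; adjusted p = 0.047, edgeR). It was the 1 called gene of 13 acetyl-CoA enzymes, against 0.208% of all genes. Of the 13, 9 had a log2 fold change above 0, against 47% of all genes, with a list median of 0.148. That list holds Acss2, the gene on the virus, as 1 of the 9 (log2 fold change 0.67). Acly, which makes cytosolic acetyl-CoA from citrate, stood just outside at 283, 249 and 272 CPM with tau and 202, 172 and 201 CPM with PBS (adjusted p = 0.0665, edgeR), and passed in the 6-library fit.

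All 20 genes of cholesterol synthesis and uptake had a log2 fold change above 0, against 47% of all genes. In the fit of 12 libraries 0 passed the test (17 at an unadjusted p under 0.05). The groups were separate for 17 of the 20, against 12.5% of all genes, and the median log2 fold change was 0.745, or 0.57 without PBS replicate 2. Nsdhl, a sterol dehydrogenase, was 108, 81.4 and 87.3 CPM with tau and 52.5, 38.6 and 57.2 CPM with PBS (adjusted p = 0.0686, edgeR). Mvd, of the mevalonate pathway, was 48.6, 45.8 and 49.1 CPM with tau and 29.6, 19.8 and 28.2 CPM with PBS (adjusted p = 0.0713, edgeR). In each of these genes PBS replicate 2 was the lowest library. Squalene epoxidase (Sqle) was 255, 204 and 232 CPM with tau and 141, 103 and 150 CPM with PBS (adjusted p = 0.0821, edgeR). The early enzyme Hmgcs1, picked after its values were seen, was 1350, 1190 and 1290 CPM with tau and 794, 518 and 827 CPM with PBS (adjusted p = 0.101, edgeR). In the fit of 6 libraries 5 of the 20 passed, against 1.14% of all genes: Dhcr7, Sqle, Nsdhl, Stard4 and Mvd.

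Other members of the genes that rose act in neuronal signalling and excitability. Hpca (chr4:129111570-129125919) encodes hippocalcin, a calcium sensor of hippocampal neurons, and stood at 1020, 914 and 909 CPM with tau and 291, 356 and 509 CPM with PBS (log2 fold change 1.30 ± 0.225, SE; adjusted p = 0.048, edgeR). Kcnq5 (chr1:21398399-21962650), a subunit of the potassium channels that carry the M-current, stood at 290, 281 and 273 CPM with tau and 121, 123 and 179 CPM with PBS (log2 fold change 1.00 ± 0.163, SE; adjusted p = 0.047, edgeR). In both, PBS replicate 3 was the highest of its group and still below every tau library. Grik4 (chr9:42518182-42945000) was 81.4, 88.6 and 82.2 CPM with tau and 49.6, 46.4 and 51.5 CPM with PBS (log2 fold change 0.77 ± 0.123, SE; adjusted p = 0.047, edgeR). Among 22 glutamate receptor subunits it was the 1 that passed, against 0.208% of all genes. Of the 22, 10 had a log2 fold change above 0, against 47% of all genes. Ppp1r1b (chr11:98348406-98357796) encodes DARPP-32, a phosphatase inhibitor that relays dopamine signals. It was 22.9, 25.8 and 25.3 CPM with tau and 12.9, 10.8 and 11.1 CPM with PBS (log2 fold change 1.09 ± 0.168, SE; adjusted p = 0.047, edgeR). The proline transporter Slc6a7 (log2 fold change 1.08), the anion exchanger Slc26a4 (1.12), the sodium-proton exchanger Slc9a2 (2.12) and the synapse-associated membrane protein Syndig1l (1.37) also rose. Slc9a2 was the 1 called gene of 24 ion pumps, exchangers and cotransporters, against 0.208% of all genes. Of the 24, 16 had a log2 fold change above 0, against 47% of all genes.

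Another set acts in axon guidance, adhesion and growth signalling. Dock9 (chr14:121538365-121797900), an activator of the small GTPase Cdc42, was 408, 407 and 363 CPM with tau and 200, 201 and 257 CPM with PBS (log2 fold change 0.84 ± 0.111, SE; adjusted p = 0.0433, edgeR). The guidance ligand Sema4a was 22.1, 18.3 and 21.4 CPM with tau and 8.54, 7.72 and 10.5 CPM with PBS (log2 fold change 1.21 ± 0.180, SE; adjusted p = 0.047, edgeR). In both genes all tau libraries lay above all PBS libraries. The guidance ligand Slit1 rose by 0.80 on the log2 scale, the adhesion molecule Nectin3 by 0.73, and Sipa1l3, of a family of Rap GTPase regulators, by 0.53. Vegfd, a growth factor of the VEGF family, was 13, 10.1 and 19.9 CPM with tau and 3.10, 2.72 and 5.33 CPM with PBS (log2 fold change 1.95 ± 0.311, SE; adjusted p = 0.047, edgeR), and Ccbe1, which takes part in activating a related ligand, rose by 1.50. In the Wnt pathway the inhibitor Nkd2 rose by 1.17 and the kinase Cdk14 by 0.46. The remaining genes that rose were Hs3st4, a heparan sulfate sulfotransferase (1.05), Msra, which repairs oxidised methionine (0.49), Palmd (0.99), Thsd7b (0.78) and Cmah, which modifies sialic acid. Cmah rested on few reads, with 29, 14 and 14 counts with tau and 3, 2 and 4 with PBS.

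Lhx1 (chr11:84517975-84525534), a LIM-homeodomain transcription factor of early neuron types, fell by 2.52 on the log2 scale (adjusted p = 0.0433, edgeR; SE 0.321). It too rested on few reads, with 5, 5 and 4 counts with tau and 36, 34 and 28 with PBS. Tac1 (chr6:7555061-7562978), the precursor of substance P, was 36.4, 32.1 and 37.1 CPM with tau and 51.4, 64.1 and 58.1 CPM with PBS, and fell by 0.72 (adjusted p = 0.048, edgeR; SE 0.124). Gsto1 (chr19:47854973-47864790), a glutathione transferase of the omega class, was 25.9, 25.3 and 22.5 CPM with tau and 37.9, 42.4 and 32.5 CPM with PBS, and fell by 0.62 (adjusted p = 0.048, edgeR; SE 0.108). The groups were separate in each of the 3. Tac1 was the 1 called gene of 20 tested neuropeptides and secretogranins, against 0.208% of all genes. Of these 20, 11 had a log2 fold change above 0, against 47% of all genes. Gsto1 was the 1 called gene of 20 antioxidant genes of the NRF2 pathway. Of these 20, 4 had a log2 fold change above 0, against 47% of all genes, with a median of -0.136.

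The called genes with the lowest adjusted p that had a RefSeq window were Lhx1, Dock9, Sema4a, Slc26a4, Pdk1 and Grik4, and the windows of Lhx1, Dock9, Slc26a4 and Grik4 are printed to show what was searched. Capitals mark any match to 6 motifs, searched on both strands: TGACGTCA (CREB), ACGTG (HIF core), AGAACA (glucocorticoid receptor half-site), AGGTCA (nuclear receptor half-site), CACGTG (E-box) and TGANTCA (AP-1). An E-box always holds the HIF core as well.
Lhx1, chr11:84525485-84525784, minus strand: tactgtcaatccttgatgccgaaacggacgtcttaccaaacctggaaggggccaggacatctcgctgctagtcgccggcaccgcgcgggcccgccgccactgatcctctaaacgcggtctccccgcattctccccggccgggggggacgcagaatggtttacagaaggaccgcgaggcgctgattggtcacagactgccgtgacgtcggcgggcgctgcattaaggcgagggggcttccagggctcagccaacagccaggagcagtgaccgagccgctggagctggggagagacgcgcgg
Dock9, chr14:121797685-121797984, minus strand: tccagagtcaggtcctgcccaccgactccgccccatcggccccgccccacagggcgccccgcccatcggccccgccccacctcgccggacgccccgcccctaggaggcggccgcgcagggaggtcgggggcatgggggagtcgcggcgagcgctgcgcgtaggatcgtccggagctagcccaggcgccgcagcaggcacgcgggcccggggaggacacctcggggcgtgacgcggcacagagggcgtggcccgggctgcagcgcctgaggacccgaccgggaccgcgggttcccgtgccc
Slc26a4, chr12:31559935-31560234, minus strand: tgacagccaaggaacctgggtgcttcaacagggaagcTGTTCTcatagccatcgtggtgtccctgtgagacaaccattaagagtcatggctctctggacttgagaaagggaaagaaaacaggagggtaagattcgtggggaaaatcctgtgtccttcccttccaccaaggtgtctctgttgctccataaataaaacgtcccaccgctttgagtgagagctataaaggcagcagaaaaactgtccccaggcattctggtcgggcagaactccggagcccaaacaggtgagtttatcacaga
Grik4, chr9:42944322-42944621, minus strand: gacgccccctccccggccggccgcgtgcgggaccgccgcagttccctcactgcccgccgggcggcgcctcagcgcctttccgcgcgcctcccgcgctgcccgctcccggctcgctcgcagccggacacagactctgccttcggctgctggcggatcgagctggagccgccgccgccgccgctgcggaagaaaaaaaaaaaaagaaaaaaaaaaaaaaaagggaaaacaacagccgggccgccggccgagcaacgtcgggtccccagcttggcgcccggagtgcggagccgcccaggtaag
Slc26a4 held 1 match, to the glucocorticoid receptor half-site, and the other 3 printed windows held 0. Dock9 had 3 windows, of which only 1 is printed. The HIF core, the E-box and both half-sites occurred in Dock9 windows that are not printed. RefSeq windows were matched for 22 of the 31 called genes, 32 windows in all, some of them neighbouring starts of 1 gene. ACGTG was in 8 of these 32 (25%) and in 19.6% of all 32851 windows. CACGTG was in 4 (12.5%) against 7.15%, AGAACA in 6 (18.8%) against 19%, and AGGTCA in 2 (6.25%) against 16.3%. TGACGTCA and TGANTCA were in 0, against 1.79% and 7.81% of all windows. These shares describe the windows and were not tested.

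The same 31 genes were then read in the vector libraries, which share no library with the upACSS2 comparison but share its estimate of the spread. With tau 451 of 14939 genes changed there (3.02%; 188 higher, 263 lower; edgeR), and 1069 with the replicate number as a block, whereas 0 passed with only the 6 vector libraries in the edgeR fit (2949 at an unadjusted p under 0.05). Of the 28 genes that rose with upACSS2, 27 had a log2 fold change above 0 with vector, against 50.8% of all genes, and 2 of the 3 that fell were below 0. Only Lhx1, Kcnq5, Cdk14 and Hk2 passed the test in both. Hk2 was 22.4, 11.2 and 44.3 CPM in the vector libraries with tau and 4.09, 2.41 and 6.92 CPM with PBS (log2 fold change 2.56; adjusted p = 0.0371, edgeR). Kcnq5 was 250, 209 and 319 CPM with tau and 142, 132 and 152 CPM with PBS (log2 fold change 0.87; adjusted p = 0.0297, edgeR). The median log2 fold change of the 28 genes was 0.402 with vector and 1.09 with upACSS2, where the genes had been called.

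Some called genes had a vector fold change near 0 or of the opposite sign. Ppp1r1b was 23.4, 13.6 and 17.2 CPM with vector and tau and 15.1, 18.5 and 18.5 CPM with vector and PBS (log2 fold change 0.05), with full overlap. Sipa1l3 had -0.19 with vector against 0.53 with upACSS2. Gsto1 had 0.21 with vector, at 37.0, 37.7 and 38.2 CPM with tau and 29.2, 35.7 and 32.7 CPM with PBS, against -0.62 with upACSS2. The difference between the 2 responses was tested directly as the interaction of tau and virus. In edgeR 0 of 14939 genes passed (2135 at an unadjusted p under 0.05), and the lowest adjusted p was 0.205, which Sipa1l3 and Gsto1 shared. DESeq2 called 128 genes, among them Sipa1l3 (adjusted p = 0.000419), Gsto1 (0.00195), Ppp1r1b (0.0169), Vegfd (0.0385) and Sema4a (0.0403). With the replicate number as a block edgeR called 166 genes, among them Sipa1l3 (adjusted p = 0.0131), Vegfd (0.0326) and Gsto1 (0.0345). The labels do not say that these numbers pair libraries, so the basis of this block is not known. A difference between upACSS2 and vector neurons in the response to tau thus passed for these genes in some fits and not in the unblocked edgeR fit.

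**Figure D2:**
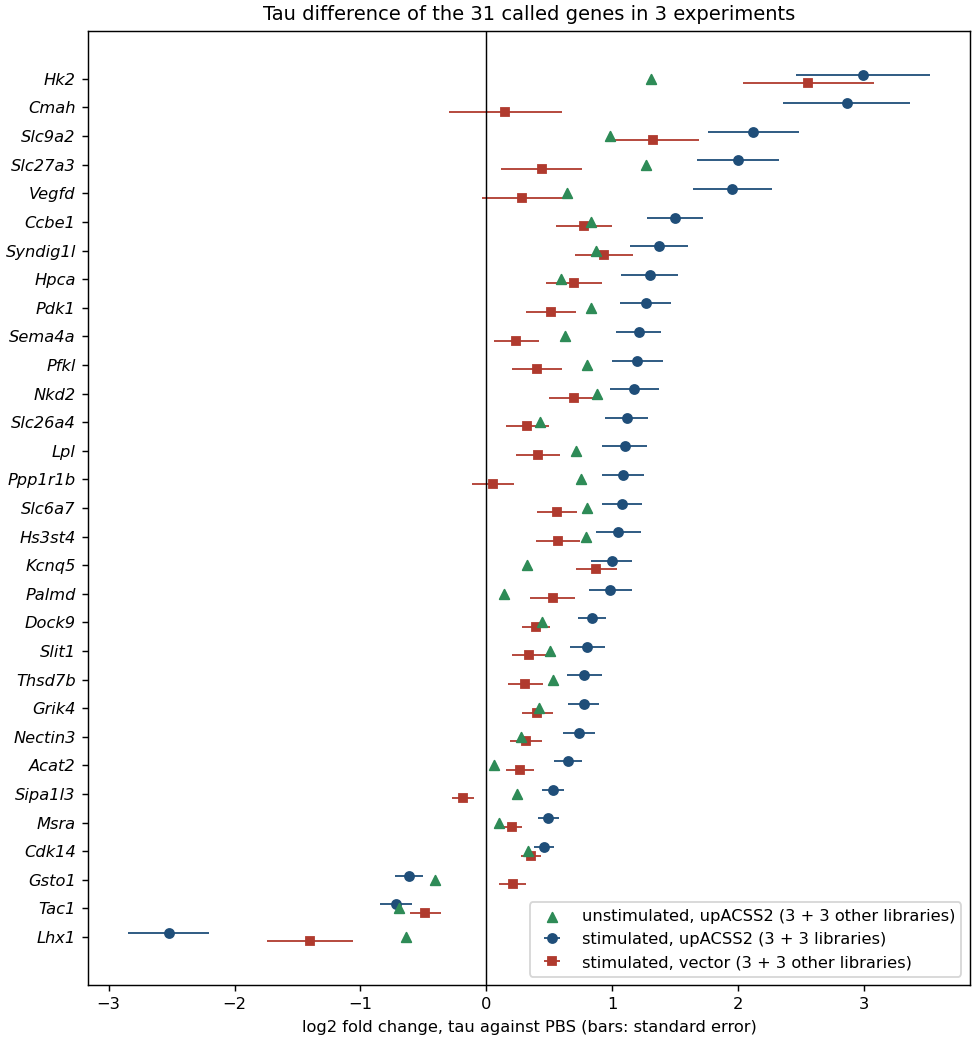
Log2 fold change of tau against PBS (horizontal axis) for the 31 called genes in stimulated upACSS2 libraries (circles), stimulated vector libraries (squares) and unstimulated upACSS2 libraries (triangles), each from 3 tau and 3 PBS libraries, with bars for the standard error where drawn. The circles were called, so their distance from 0 is given by the choice of genes; 27 of the 28 higher genes are also above 0 with vector, and Sipa1l3 and Gsto1 switch sign there.

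In the unstimulated day 21 neurons with upACSS2, from other libraries and a separate fit, all 27 tested of the genes that rose had a log2 fold change above 0, against 48.7% of all genes, and all 3 that fell were below 0. None of these genes passed the test there, where 8 of 14863 did. Their median was 0.628. Unstimulated vector neurons gave 27 of 27 above 0, against 49.7% of all genes, and 2 of 3 below 0, with a median of 0.596. In the day 21 culture without virus 13 of 26 were above 0, against 51.4% of all genes, with a median of -0.0103, and the 3 lower genes were below 0. Hk2 had a log2 fold change of 1.31 in unstimulated upACSS2 neurons and 2.08 without virus, and Pdk1 had 0.83 and 1.05. Kcnq5 had 0.32 in unstimulated upACSS2 neurons and -0.94 without virus. Hk2 and Pdk1 were thus above 0 in both of these experiments, and Kcnq5 was not. None of these values passed the test.

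The metabolic lists were read across the same experiments. The median log2 fold change of the HIF targets was 0.931 with stimulated upACSS2, 0.543 with stimulated vector, 0.667 and 0.524 in unstimulated upACSS2 and vector neurons, and 0.469 without virus. Glycolysis and lactate genes had 0.524, 0.227, 0.404, 0.37 and 0.23 in the same order, and cholesterol genes 0.745, 0.298, 0.252, 0.34 and 0.607. All 15 medians were above 0. Per library, the mean log2 CPM of the 18 HIF targets was 5.107 to 5.511 with upACSS2 and tau, and 4.103 to 4.382 with upACSS2 and PBS. The vector libraries had 4.671 to 5.786 with tau and 4.17 to 4.915 with PBS, and these ranges overlapped.

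**Figure D3:**
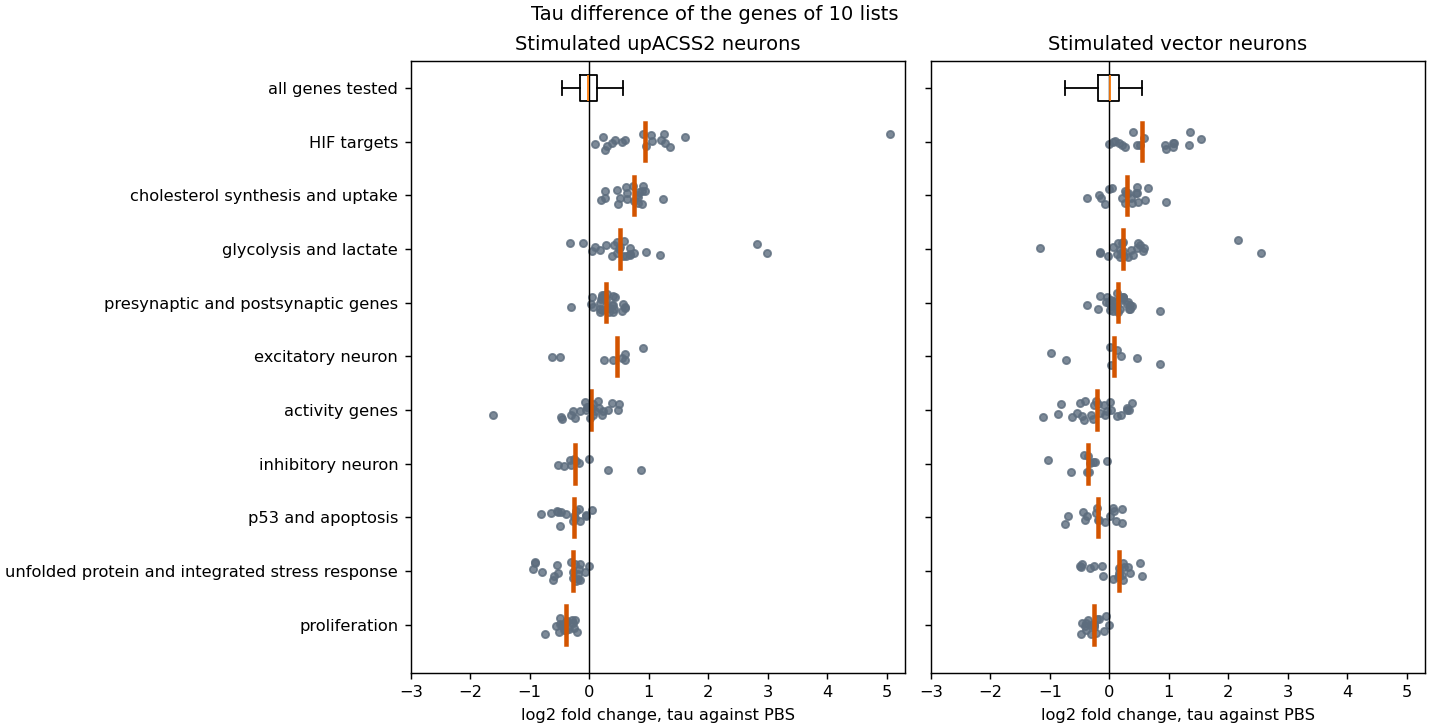
Log2 fold change of tau against PBS (horizontal axis) for each tested gene of 10 lists in stimulated upACSS2 (left) and vector (right) libraries, with the list median as a vertical bar and all 14939 genes as a box (quartiles; whiskers at the percentiles 5 and 95). Every HIF target and cholesterol gene lies above 0 on the left, and every gene of the stress response and of proliferation lies below it.

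Genes of the unfolded protein and integrated stress response, which are switched on when protein folding or amino acid supply fails, lay lower with tau. All 20 had a log2 fold change below 0, with a median of -0.274, and 0 passed the test (11 at an unadjusted p under 0.05; 0 also in the 6-library fit). For 9 of the 20 every tau library was below every PBS library, against 11.2% of all genes. Ddit3, the stress transcription factor CHOP, was 25.7, 27.1 and 25.3 CPM with tau and 37.4, 67.5 and 41.3 CPM with PBS (adjusted p = 0.0713, edgeR). Chac1, which degrades glutathione, was 14.2, 14.4 and 17.2 CPM with tau and 21.0, 33.3 and 24.8 CPM with PBS (adjusted p = 0.0713, edgeR). In both, PBS replicate 2 was the highest library. Sesn2, a sestrin induced by amino acid shortage, was 42.3, 44.6 and 42.2 CPM with tau and 61.6, 80.3 and 53.9 CPM with PBS (adjusted p = 0.117, edgeR). Without PBS replicate 2 the log2 fold change of Ddit3 moved from -0.91 to -0.59, and the list median from -0.274 to -0.245.

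With vector the same list had a median of 0.16, with 13 of 20 genes above 0, and Ddit3 had a log2 fold change of 0.51. The interaction of tau and virus was below 0 for 18 of the 20, with a median of -0.408 on the log2 scale. For Ddit3 it was -1.42, with an adjusted p of 0.205 in edgeR, 0.0167 in edgeR with the replicate block and 0.000608 in DESeq2. Of the 20 genes 0 passed this test in the unblocked edgeR fit, 5 with the block and 3 with DESeq2. Chac1 passed in edgeR with the block and in DESeq2 (adjusted p = 0.0474 and 0.0164). The basis of the block is not known here either. Unstimulated upACSS2 neurons had a median of -0.275, with 1 of 20 above 0, unstimulated vector neurons 0.139, with 13 of 20 above 0, and the culture without virus -0.268, with 5 of 20 above 0. The median thus lay below 0 in both upACSS2 experiments and in the culture without virus, and above 0 in both vector experiments.

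Genes of p53 signalling and apoptosis had a median of -0.261, with 1 of 16 above 0, against 47% of all genes, and 0 called. Bbc3, the death effector PUMA, was 6.87, 13.3 and 6.79 CPM with tau and 16.5, 16.9 and 14.1 CPM with PBS (adjusted p = 0.176, edgeR). All 17 proliferation genes were below 0, with a median of -0.396 and 0 called. The replication factor Mcm3 was 13.4, 11.6 and 11.3 CPM with tau and 15.8, 20.7 and 14.4 CPM with PBS (adjusted p = 0.234, edgeR). The size of this median depended on PBS replicate 2, and was -0.0444 without it. In stimulated vector neurons 0 of 17 were above 0 (median -0.261). The same held in unstimulated upACSS2 (-0.61) and vector neurons (-0.144), while without virus 17 of 17 were above 0 (0.515).

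Activity genes, which neurons switch on within minutes to hours of stimulation, showed no common direction with upACSS2. Of 26, 15 were above 0, against 47% of all genes, with a median of 0.0209, and 0 passed. Fosl1, an AP-1 subunit, was 0.604, 0.418 and 0.438 CPM with tau and 1.54, 1.54 and 1.41 CPM with PBS (adjusted p = 0.0821, edgeR; 0.0389 in the 6-library fit, where it was the 1 of the 26 that passed). The phosphatase Dusp1 was 484, 492 and 497 CPM with tau and 376, 342 and 410 CPM with PBS (adjusted p = 0.12, edgeR). Npas4, a transcription factor specific to neurons, was 741, 661 and 713 CPM with tau and 433, 485 and 591 CPM with PBS (adjusted p = 0.164, edgeR). The last 2 had higher tau libraries without overlap, and Fosl1 had lower ones. In stimulated vector neurons 8 of the 26 were above 0, against 50.8% of all genes, with a median of -0.208. There 5 passed in the fit of 12 libraries, all lower, against 3.02% of all genes called in either direction.

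**Figure D4:**
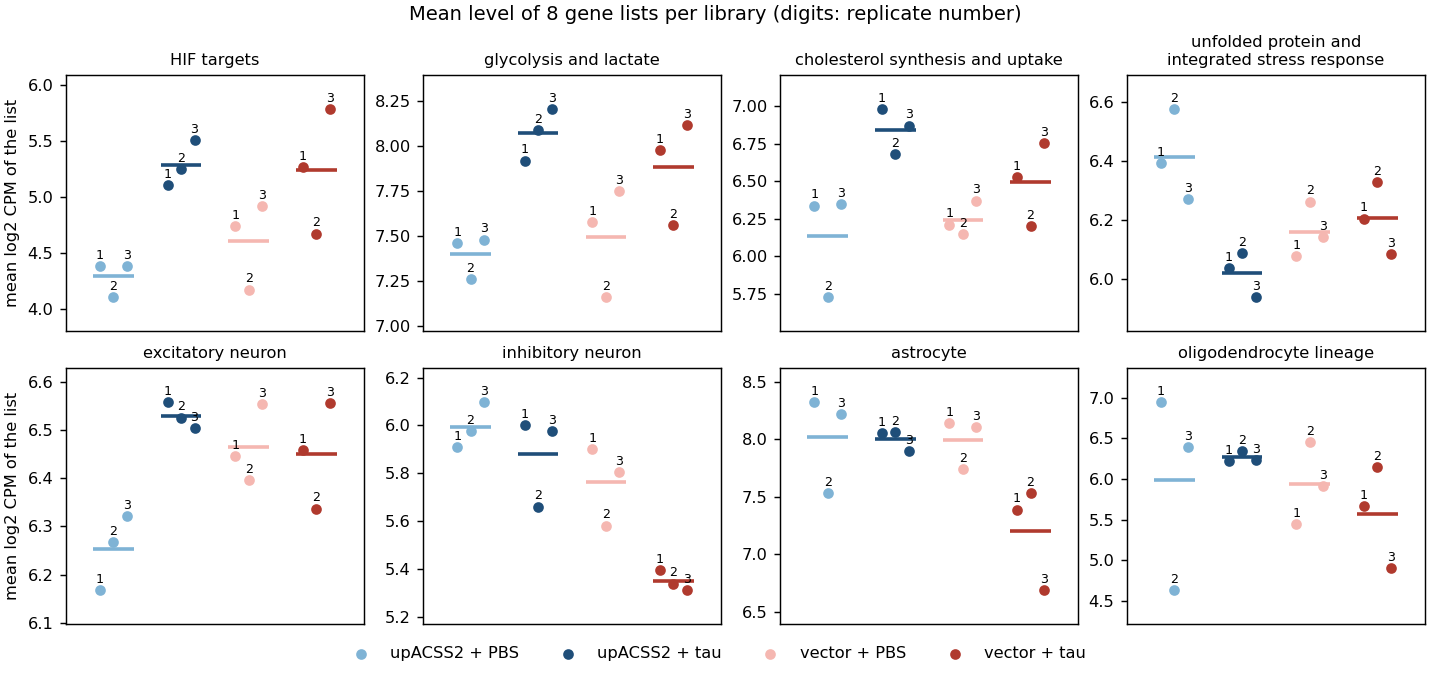
Mean log2 CPM of the genes of 8 lists (vertical axis, not starting at 0) in each of the 12 stimulated libraries, numbered by replicate, with the group mean as a line. HIF, glycolysis, cholesterol and excitatory neuron lists separate tau from PBS with upACSS2, the stress list separates them in the opposite direction, and PBS replicate 2 is the lowest upACSS2 library for the astrocyte and oligodendrocyte lists.

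Neuron markers moved alongside these lists, and their part in the results was not tested. In bulk samples fewer cells of a type and less RNA per cell cannot be told apart. Of 28 synaptic genes, 27 were above 0, with a median of 0.29 and 0 called, and 18 were higher without overlap, against 12.5% of all genes. Of 8 excitatory neuron markers 6 were above 0, with a median of 0.472 and 0 called, and their summed level was 4010 to 4520 CPM with tau and 2680 to 3320 CPM with PBS. Neurod6, a transcription factor of pyramidal neurons, was 330, 279 and 334 CPM with tau and 157, 142 and 204 CPM with PBS (adjusted p = 0.0847, edgeR). Camk2a, a kinase of excitatory synapses, was 2260, 1880 and 2060 CPM with tau and 1260, 1240 and 1570 CPM with PBS (adjusted p = 0.0943, edgeR). The glutamate transporter Slc17a7 was 1640, 1550 and 1730 CPM with tau and 993, 1030 and 1230 CPM with PBS (adjusted p = 0.104, edgeR) and was picked after its values were seen. In the 6-library fit Neurod6 and Slc17a7 passed, 2 of the 8 markers, against 1.14% of all genes. Slc17a7 was also the 1 synaptic gene that passed in that fit. Neurod6, Camk2a and Slc17a7 had separate groups. Prox1, a marker of dentate granule cells in the same list, was also picked afterwards. It lay the other way, at 115 to 144 CPM with tau and 163 to 192 CPM with PBS. The synaptic median was 0.139 with stimulated vector, 0.185 and 0.334 in unstimulated upACSS2 and vector neurons, and -0.47 without virus. For excitatory markers it was 0.0784, 0.292, 0.281 and -0.649 in the same order. Without virus 7 of 28 synaptic genes and 1 of 8 excitatory markers were above 0, against 51.4% of all genes.

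Of 10 inhibitory neuron markers 2 were above 0, against 47% of all genes, with a median of -0.244 and 0 called. Lhx6, a factor of cortical and hippocampal interneurons, was 80.1, 92.5 and 76.2 CPM with tau and 103, 145 and 112 CPM with PBS (adjusted p = 0.0878, edgeR). Somatostatin (Sst) was 158, 179 and 221 CPM with tau and 238, 281 and 231 CPM with PBS (adjusted p = 0.17, edgeR). The summed level of the 10 markers was 1610 to 2080 CPM with tau and 2070 to 2520 CPM with PBS, which overlapped. With vector the sums were 1290 to 1420 and 1600 to 2010 CPM, with no overlap and a list median of -0.354.

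Among glial markers, the 14 astrocyte markers had a median log2 fold change of -0.127 with upACSS2, -0.344 without PBS replicate 2 and -0.688 with vector. Their sum was 8910 to 10200 CPM with upACSS2 and tau, 7340 to 12200 CPM with upACSS2 and PBS, and 3930 to 6200 against 7840 to 11800 CPM with vector. The 12 oligodendrocyte-lineage markers had a median of -0.0733, which ran from -0.427 to 0.552 when 1 library was left out (-0.427 without PBS replicate 2). Of 12 microglial markers 4 were abundant enough to test, all 4 above 0, with a median of 0.8 with upACSS2 and 0.472 with vector. Csf1r, a growth factor receptor of microglia, was 6.08, 5.50 and 4.93 CPM with tau and 1.92, 1.77 and 3.47 CPM with PBS (adjusted p = 0.0786, edgeR), while the more specific Cx3cr1, Tmem119 and Trem2 stayed at or below 0.348 CPM. The tested endothelial and mural markers (4 of 12), fibroblast and meningeal markers (9 of 10) and choroid plexus and ependymal markers (4 of 8) had medians of 0.191, -0.385 (-0.0841 without PBS replicate 2) and -0.494, with 0 called. General neuron markers had a median of 0.244, with 7 of 10 above 0 and 0 called. Their median was 0.00605 with stimulated vector, 0.157 and 0.123 in unstimulated upACSS2 and vector neurons, and -0.662 without virus.

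The other lists had 0 called genes. The list of 32 potassium, sodium and calcium channel genes does not hold the called Kcnq5. Of these 32, 25 were above 0, against 47% of all genes, with a median of 0.217. That median was 0.0181 with stimulated vector, 0.129 and 0.201 in unstimulated upACSS2 and vector neurons, and -0.568 without virus (3 of 32 above 0). Medians with stimulated upACSS2 were 0.0633 for 12 GABA-A receptor subunits, 0.0265 for 24 genes of tau, microtubule proteins and tau kinases, and -0.0147 for 20 histone acetyltransferases and deacetylases. They were 0.127 for 16 glucocorticoid response genes, -0.0329 for 23 PPAR targets and fatty acid oxidation genes, 0.00349 for 14 heat shock genes (1 of which, Hspa1b, passed in the 6-library fit) and -0.0534 for 22 genes of lysosome and autophagy. NF-kB targets had 0.119 over 13 tested genes and interferon response genes 0.0877 over 13.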

How the data were processed

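RNA from primary mouse hippocampal neurons was sequenced from libraries made with an NEB kit from 130 ng of total RNA, per the labels' protocols. The authors deposited counts of reads per gene symbol, 1 column per library, untransformed. The submitters' processing notes name STAR, featureCounts, HTSeq, DESeq2 and the mm10 build; annotation and strand setting are not given in the sources used here, so reads of overlapping or antisense genes and of near-identical copies cannot be told apart. All 12 columns of the stimulated table were mapped by their names.

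The test was that of edgeR 4.0.16, run in R 4.3.3 (quasi-likelihood F test, two-sided, TMM scaling, default expression filter by group, Benjamini-Hochberg over 14939 genes, threshold 0.05), with the 12 libraries in 1 fit. The unstimulated and virus-free tables were fitted separately. CPM are relative to TMM-scaled library sizes, and mean log2 CPM used a prior count of 2. SE is the log2 fold change divided by the root of F. The edgeR step was tested on simulated data. Libraries of a group all differed by more than sampling noise (chi-square per gene at least 5.68).

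Named were Acss2, every called gene and, per list, every called member and up to 3 members with the lowest unadjusted p; others are said to be picked after their values were seen. Members, lists and tests were chosen with earlier results of these data known. Alternatives were DESeq2 1.42.0, RLE factors, no filter, a replicate block, only the libraries compared, and each library left out. Deviations from the group mean had correlations of 0.134, 0.326 and 0.123 between same-numbered vector libraries, each the highest for its tau library. Vector tau replicate 3 had nearly the same value, 0.117, with PBS replicate 1. Same-numbered upACSS2 libraries had -0.115, 0.0979 and 0.156. The labels give no pairing, so whether the numbers pair libraries is not known.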

Additional observations from a re-analysis of the deposited data

How the results depend on the processing

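The count of 31 genes was 453 with DESeq2 (356 higher, 97 lower), 110 without a filter on low counts, 31 with RLE factors, and 167 with only the 6 upACSS2 libraries. With the replicate number as a block it was 487, and 212 with the block in the 6-library fit, although these numbers are not shown to pair the upACSS2 libraries. Without 1 library it ran from 0 to 250. The vector count of 451 was 1534 with DESeq2, 1069 with the replicate block, 0 with only the 6 vector libraries and 0 to 1293 without 1 library. The interaction count of 0 was 128 with DESeq2 and 166 with the replicate block. The cause of these differences was not tested.

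Without 1 library the median log2 fold change ran from 0.717 to 1.09 for HIF targets, 0.463 to 0.619 for glycolysis, 0.57 to 0.878 for cholesterol, -0.349 to -0.245 for the stress response, 0.104 to 0.297 for acetyl-CoA enzymes, 0.0573 to 0.155 for ion pumps, 0.141 to 0.305 for neuron and 0.404 to 0.539 for excitatory neuron markers, 0.571 to 1.06 for microglia, and -0.695 to -0.261 for choroid plexus. It crossed or neared 0 for glucocorticoid response (-0.024 to 0.214), heat shock (9.84e-05 to 0.0547), histone acetyltransferases and deacetylases (-0.0192 to 0.0242, and 0.00321 with the replicate block in the 6-library fit), glutamate receptors (-0.0624 to 0.0424), endothelial markers (-0.00418 to 0.348), NF-kB targets (-0.0118 to 0.257), interferon response (-0.0775 to 0.156), PPAR targets (-0.124 to 0.0616), activity genes (-0.0262 to 0.0723), neuropeptides (-0.0305 to 0.32) and oligodendrocyte lineage (-0.427 to 0.552). Groups of 3 libraries, adjusted p-values close to the threshold and few reads on Lhx1 and Cmah limit these results.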
